A study of Mus musculus with 9 samples.

Results

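HC11 cells carrying FoxF1 were set directly against HC11 cells carrying NFI-C2, without the control cells as a reference, to describe which genes separate both lines. HC11 is a clone of the COMMA-1D mammary epithelial line from BALB/c mice. The comparison used 6 of the 9 arrays of the series, 3 of FoxF1 cells and 3 of NFI-C2 cells. The other 3 arrays, of cells that the labels call wild type and the methods call vector control, entered the fit to share the estimate of spread and are given for orientation. All groups were the same line and received the same medium, which contained serum, insulin and EGF. The transfected lines were stable and carried FoxF1 or NFI-C2, the latter named by the study as a stable form of the protein. The methods describe the samples of a line as pools of cells. Separate transfection of the pools is stated in none of the sources used here, so that the p-values below measure the spread between these arrays, which may be technical.

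FoxF1 is a forkhead transcription factor known for its role in mesenchyme, downstream of hedgehog signaling. NFI-C2 is a splice variant of nuclear factor I C, a family that binds palindromic sites with the core TTGGC and is known in the mammary gland for the control of milk genes. The epithelial to mesenchymal transition (EMT) is the program in which epithelial cells lose cadherin junctions, desmosomes and keratin filaments and take on vimentin, fibronectin and other mesenchymal proteins. Zeb, Snail and Twist factors drive it, and Zeb and Snail factors repress epithelial genes through E-boxes in their promoters.

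Of the 19935 genes with a transcript cluster (a group of probes for 1 transcript) of a single symbol, 18497 had values that were not equal on all 9 arrays, and all of these were compared. The values are log2 expression centred, for each cluster, on the median of the 9 arrays, so that a difference between groups is readable and a level is not. Fewer cells of a type and less RNA per cell cannot be told apart in such bulk samples. A gene was called when its adjusted p from limma, corrected over the 18497 genes, was under 0.05. The smallest p that 3 arrays against 3 allow in an exact two-sided permutation test is 0.1.

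The lines differed in a large part of the genes. In FoxF1 cells 4244 genes were higher (22.9% of the genes tested) and 3526 were lower (19.1%) than in NFI-C2 cells, together 7770 genes or 42.0%. Differences of 2-fold or more were more often falls than rises in FoxF1 cells, with 690 genes higher (3.73%) and 1031 lower (5.57%), and this held more strongly at 8-fold or more, with 53 genes higher (0.287%) and 198 lower (1.07%). When all arrays were forced to one distribution by quantile normalization the counts at 2-fold were 622 and 620. The median difference over all genes was 0.0010 on the log2 scale, the median size of a difference was 0.116, and the median standard error was 0.0533. The FoxF1 and NFI-C2 arrays did not overlap in 8613 genes (46.6%). A difference within 1.5-fold could be stated, from the 95% interval, for 13599 genes (73.5%). These include genes in which 2 or more arrays shared the lowest value. When the 14273 genes without such ties were fitted alone, the count was 9506. The standard deviation over all clusters was 0.528 to 0.539 on the FoxF1 arrays, 0.211 to 0.243 on the NFI-C2 arrays and 0.174 to 0.183 on the wild type arrays.

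The transfected factors were examined first. The 3 FoxF1 arrays held Foxf1 at 0.32, 0.12 and 0.09, the 3 NFI-C2 arrays at -1.42, -0.91 and -1.46, and the 3 wild type arrays at 0.01, 0.00 and -0.07. On these arrays the FoxF1 and wild type values thus lay close together and all NFI-C2 values lay below them. The study also measured FoxF1 mRNA in these lines by RT-PCR and calls the FoxF1 cells overexpressing. Foxf1 was 2.71-fold higher in FoxF1 than in NFI-C2 cells (difference 1.44, SE 0.142, limma adjusted p = 9.3e-05), and the mean difference from wild type was 0.20 in FoxF1 cells and -1.24 in NFI-C2 cells. How far the probes of this cluster cover the transfected Foxf1 sequence is not given in the sources used here. The same holds for the Nfic cluster and the transfected NFI-C2 sequence. Nfic was at -0.11, -0.13 and -0.22 in FoxF1 cells and at 0.19, 0.00 and 0.00 in NFI-C2 cells. All 3 FoxF1 values of Nfic lay below the NFI-C2 values, by a small difference of -0.21 (SE 0.0722, limma adjusted p = 0.0477) that missed the threshold in 11 of 19 alternative settings. The other nuclear factor I genes were lower in FoxF1 cells as well, Nfia by the largest margin (difference -0.87), followed by Nfix (-0.40) and Nfib (-0.19). Foxf2, the closest relative of Foxf1, differed by -0.16 (95% interval -0.34 to 0.03, limma adjusted p = 0.174). Foxc1, a forkhead factor linked to EMT, was lower by -1.12, and among 20 forkhead genes tested 4 were higher and 5 lower, near the shares of all genes.

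The largest rises in FoxF1 cells were in Lox, Ddr2 and Prrx1. Lox, the lysyl oxidase that crosslinks collagen and elastin, was at 5.00, 5.05 and 4.71 in FoxF1 cells and at -1.02, -0.88 and -1.14 in NFI-C2 cells, with wild type arrays between -0.07 and 0.02. It was the largest difference upward, 60.9-fold (difference 5.93, SE 0.0991, limma adjusted p = 9.9e-09). The wild type value of Lox lay between both lines, closer to NFI-C2 cells. Ddr2, a collagen receptor kinase, was 44.9-fold higher, with FoxF1 arrays at 5.37, 5.31 and 5.43 and NFI-C2 arrays at -0.16, -0.06 and -0.15. The homeobox factor Prrx1, which marks mesenchyme, was 38.4-fold higher, at 5.16 to 5.29 against -0.06 to 0.00. For Ddr2 and Prrx1 the NFI-C2 and wild type values overlapped, so that the difference lay with FoxF1 cells.

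Next in size came Cxcl12, a chemokine made by stromal cells (difference 5.02), Pcdh19, a protocadherin (4.91), the pentraxin Ptx3 (4.88) and Aebp1, a collagen-binding protein (4.87). Then came Fhl1, a LIM domain protein (4.79), the EMT transcription factor Zeb1 (4.39), St3gal5, which makes the ganglioside GM3 (4.33), and the intermediate filament gene Vim (4.21). Vim was at 2.37, 2.43 and 2.48 in FoxF1 cells, at -1.74, -1.83 and -1.77 in NFI-C2 cells and at -0.04, 0.01 and 0.00 in wild type cells. The 3 groups of Vim values were thus apart from each other, with wild type in the middle. The same order was seen for Ptx3, Aebp1 and St3gal5, whose NFI-C2 values lay -1.51, -1.48 and -1.70 from wild type, while those of Pcdh19 and Fhl1 lay 0.22 and 0.08 from it. The last of the 15 largest rises were Ogn, a small proteoglycan (4.05), the guidance cue Sema3a (4.04), Gpnmb, a membrane glycoprotein (4.004), and Clmp, a cell adhesion molecule (3.96). Ogn varied most among these, with FoxF1 arrays at 4.78, 3.91 and 3.39 and an SE of 0.301.

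**Figure D1:**
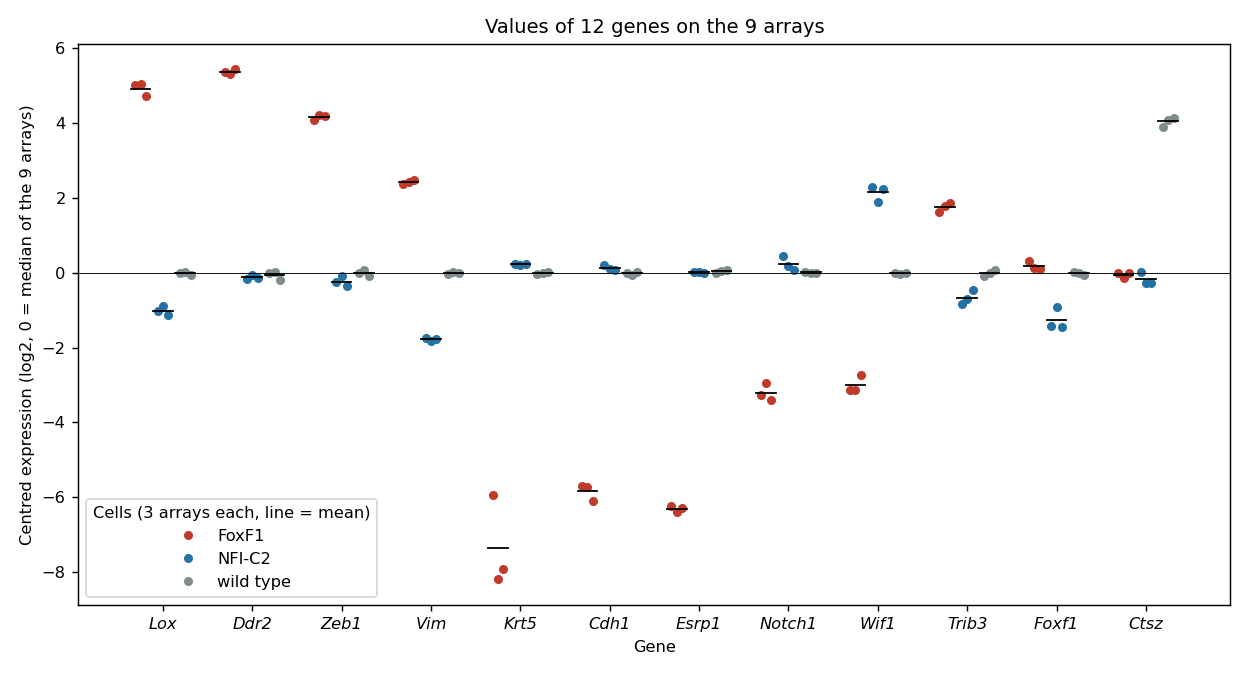
Centred log2 expression (0 is the median of the 9 arrays) of 12 genes on each array, 1 point per array and a line at the mean of each group of 3. FoxF1 points of Lox, Ddr2, Zeb1 and Vim lie far above the NFI-C2 points, those of Krt5, Cdh1, Esrp1, Notch1 and Wif1 far below, and for Ctsz both lines lie together about 4 log2 units below wild type.

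The largest falls were larger than the largest rises, and 3 keratins were among the 15 largest. Krt5, the basal keratin, was at -5.95, -8.19 and -7.92 in FoxF1 cells and at 0.23, 0.20 and 0.23 in NFI-C2 cells, a difference of -7.57 or 189.9-fold (SE 0.523, limma adjusted p = 1.2e-05). One FoxF1 array was thus higher than the other 2 but far below every NFI-C2 array. Krt17 was at -6.00, -7.17 and -7.17 against 0.76, 0.67 and 0.71, and the 2 lowest arrays shared the same value. Krt14, the partner of Krt5 in basal cells, was at -5.24, -5.56 and -5.96 against 0.46, 0.44 and 0.38. The wild type means of these keratins were -0.01, 0.00 and 0.00, below the NFI-C2 means of 0.22 for Krt5, 0.71 for Krt17 and 0.43 for Krt14 and far above every FoxF1 array.

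Bbox1, the last enzyme of carnitine synthesis, differed by -7.25, Ly6d, a surface protein of keratinocytes, by -6.89, and Dsg3, a desmosomal cadherin, by -6.87. Spink5, a protease inhibitor of the epidermis, differed by -6.71, the whey acidic protein family member Wfdc18 by -6.68 and the retrotransposon-derived Rtl3 by -6.61. Ly6d, Spink5 and Rtl3 were above wild type in NFI-C2 cells by 1.67, 1.59 and 1.71, so that the direct difference exceeded the one from wild type. Trim29 (-6.41), the BMP and Wnt inhibitor Sostdc1 (-6.38), desmoplakin Dsp (-6.36), the epithelial splicing factor Esrp1 (-6.32), Epcam (-6.19) and the glutathione peroxidase Gpx2 (-5.96) completed the 15. Esrp1 had the smallest spread of them, with FoxF1 arrays at -6.24, -6.39 and -6.29, NFI-C2 arrays at 0.03, 0.02 and -0.01, and an adjusted p in limma of 2.0e-10.

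Gene lists are described by their counts, to be read against the 22.9% of all genes that were higher and the 19.1% that were lower. The lists were chosen with earlier results of these data known. A count can therefore follow in part from the choice of members and is a description, not independent evidence. Genes that specify epithelial identity were lower in FoxF1 cells. Of 26 listed epithelial regulators, 24 were tested and all 24 were lower, 21 of them by 2-fold or more, where 19.1% and 5.57% of all genes were. Their median difference was -2.58, ranging from -6.32 for Esrp1 to -0.52 for Tfap2a. After Esrp1 the largest were the Ets factor Ehf (-5.65), the protease inhibitor Spint2 (-5.19) and its target St14, the protease matriptase (-5.00). The paralog Esrp2 was lower by -3.81, the basal cell factor Trp63 by -4.18, the grainyhead factors Grhl2, Grhl1 and Grhl3 by -4.18, -1.97 and -1.60, and the vesicle sorting genes Ap1m2 and Rab25 by -4.73 and -4.56. In the median these genes lay -3.06 from wild type in FoxF1 cells and -0.06 in NFI-C2 cells. Elf5 (-0.84), a regulator of the alveolar lineage, and Klf4 (-0.97) were among the smaller differences.

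The promoters of 4 of these genes are shown because they hold 2 or more E-boxes, all before the start. The promoter of Grhl3 also holds 2, 1 of them after the start, and is not shown. They are given from 250 bases before to 50 bases after the start of the RefSeq gene on the gene's strand, in the build GRCm38.p6, with the E-box CAGGTG or its reverse complement CACCTG in capitals. The promoter of Ap1m2 is at chr9:21312284-21312583 (minus strand), that of Spint2 at chr7:29281928-29282227 (minus strand), that of Elf5 at chr2:103411848-103412147 (plus strand) and that of Rab25 at chr3:88548230-88548529 (minus strand).
Ap1m2: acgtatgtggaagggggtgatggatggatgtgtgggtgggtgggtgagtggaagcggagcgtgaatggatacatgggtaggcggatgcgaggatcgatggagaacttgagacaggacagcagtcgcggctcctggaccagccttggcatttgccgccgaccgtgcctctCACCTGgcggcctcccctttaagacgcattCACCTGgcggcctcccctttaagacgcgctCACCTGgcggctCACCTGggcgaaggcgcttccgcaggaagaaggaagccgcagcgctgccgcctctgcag
Spint2: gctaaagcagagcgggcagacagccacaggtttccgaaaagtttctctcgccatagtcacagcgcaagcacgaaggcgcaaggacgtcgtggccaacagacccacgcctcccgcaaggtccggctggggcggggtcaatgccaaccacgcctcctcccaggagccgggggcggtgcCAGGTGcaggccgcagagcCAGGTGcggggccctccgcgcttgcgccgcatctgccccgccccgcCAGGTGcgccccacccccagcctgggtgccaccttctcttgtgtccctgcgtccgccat
Elf5: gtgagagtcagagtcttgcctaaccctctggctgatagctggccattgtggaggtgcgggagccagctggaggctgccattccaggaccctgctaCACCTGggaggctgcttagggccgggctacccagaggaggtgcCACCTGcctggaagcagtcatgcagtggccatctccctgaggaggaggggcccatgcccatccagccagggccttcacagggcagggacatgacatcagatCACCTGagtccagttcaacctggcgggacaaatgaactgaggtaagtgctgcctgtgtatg
Rab25: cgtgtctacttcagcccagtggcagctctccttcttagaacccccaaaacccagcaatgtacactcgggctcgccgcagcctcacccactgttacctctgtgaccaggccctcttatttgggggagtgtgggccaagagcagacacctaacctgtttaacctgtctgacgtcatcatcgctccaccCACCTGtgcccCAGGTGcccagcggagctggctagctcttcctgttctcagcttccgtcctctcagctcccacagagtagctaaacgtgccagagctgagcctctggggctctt

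Ap1m2 held 4 E-boxes, Spint2 and Elf5 held 3 each and Rab25 held 2. Of the 24 epithelial regulators tested, 12 had a promoter in the table and 6 of these held an E-box. The motif was chosen after the values were seen. Among the 14447 genes tested with a promoter, 19.0% held it on either strand. It was held by 232 of 773 promoters of genes lower by at least 2-fold in FoxF1 cells, by 79 of 514 (15.4%) of those higher by as much and by 1649 of 8232 of those not called. The forkhead motif GTAAACA was in 2.94% of all these promoters, in 1.36% of those of genes higher by 2-fold and in 2.46% of those lower by 2-fold. The nuclear factor I core TTGGC was in 49.2%, 49.2% and 50.3%. A match of letters is a description and not a bound site.

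Most junction genes tested were lower, with a few rises among them. Among 13 desmosome genes tested, 10 were lower and 1 was higher, with a median difference of -3.75. The falls were led by Dsg3 and Dsp, followed by the cadherin Dsc2 (-4.41) and plakoglobin Jup (-4.10), whereas plakophilin Pkp2 was higher by 0.87. Of 17 adherens junction and hemidesmosome genes 12 were lower and 4 higher. E-cadherin, Cdh1, was at -5.70, -5.72 and -6.09 in FoxF1 cells and at 0.21, 0.11 and 0.07 in NFI-C2 cells, 62.3-fold lower in the former (difference -5.96, SE 0.101, limma adjusted p = 1.0e-08). The wild type arrays of Cdh1 lay between -0.06 and 0.02, close to the NFI-C2 arrays. The hemidesmosome genes Itgb4 (-5.52) and Col17a1 (-5.16) and P-cadherin Cdh3 (-4.77) were lower in FoxF1 cells, and Nectin3 (1.89) and the plakin Dst (1.14) were higher.

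Tight junction genes had 12 falls and 1 rise among 20 tested. F11r (-3.30) and Cldn1 (-2.97) differed most, and Cldn12 was the rise (1.24). Cldn4 differed by -1.35 and Cldn3 by -1.57, with both lines below wild type, by -3.67 in FoxF1 and -2.31 in NFI-C2 cells for Cldn4 and by -2.49 and -0.92 for Cldn3. Tjp1 differed by 0.09 and was not called.

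Keratins of stratified and of simple epithelia had falls and no rise. Of 14 keratins of stratified epithelia 9 were lower and none was higher, with Krt6a (-5.91) and Krt16 (-5.45), which mark activated keratinocytes, behind the 3 basal keratins. Krt16 was at -2.67, -2.95 and -2.48 in FoxF1 cells, at 2.87, 2.52 and 2.88 in NFI-C2 cells and between -0.05 and 0.00 in wild type cells, so that both lines stood apart from wild type on opposite sides. Of 6 keratins of simple epithelia 4 were lower in FoxF1 cells. Krt8 was at -3.80, -4.65 and -4.98 against 0.00, -0.17 and 0.09, with wild type arrays at 1.05 to 1.14, and Krt7 and Krt18 differed by -2.12 and -1.18. For Krt7 and Krt18 both lines were far below wild type, by -3.33 and -3.21 in NFI-C2 cells and by -5.45 and -4.38 in FoxF1 cells. Genes of epidermal differentiation had 15 falls and no rise among 25 tested. Dmkn (-5.51), Krtdap (-4.12) and Lypd3 (-3.43) were the largest on an annotated locus, and Dmkn and Krtdap were above wild type in NFI-C2 cells by 2.11 and 3.47.

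**Figure D2:**
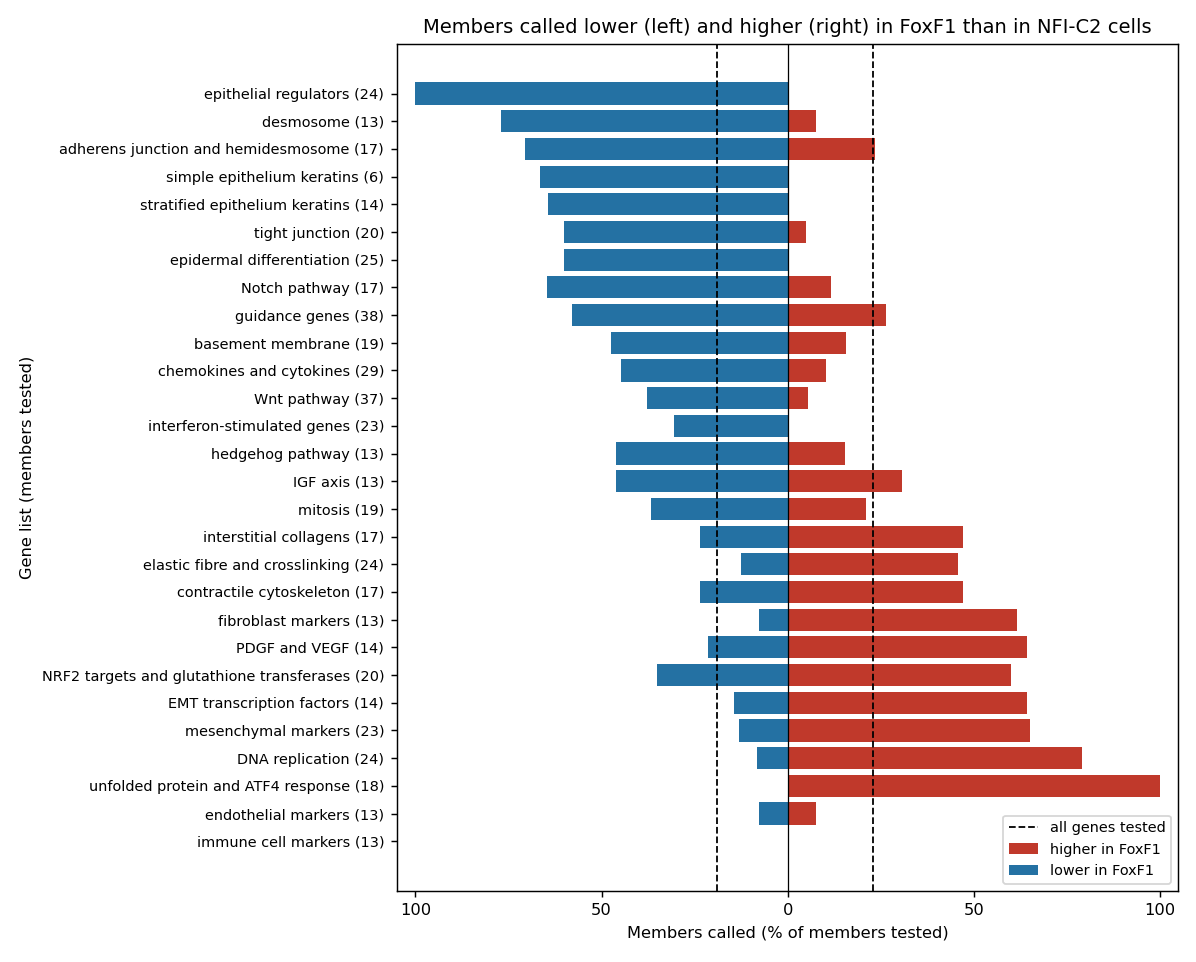
Share of the tested members of 28 gene lists that were called lower (bars to the left, in percent) or higher (bars to the right, in percent) in FoxF1 than in NFI-C2 cells, with the number of members tested in brackets and dashed lines at the shares of all genes tested, 19.1% and 22.9%. All 24 epithelial regulators lie to the left and all 18 genes of the unfolded protein and ATF4 response to the right, and none of 13 immune cell markers was called.

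On the mesenchymal side, EMT transcription factors had 9 rises and 2 falls among 14 tested, 7 of the rises by 2-fold or more, with a median difference of 0.95. Zeb1 was at 4.07, 4.20 and 4.18 against -0.26, -0.09 and -0.36 (difference 4.39, SE 0.0745, limma adjusted p = 1.0e-08). Twist2 (2.55), Snai1 (1.93), Prrx2 (1.89), Zeb2 (1.74) and Twist1 (1.17) were higher as well. The difference in Snai1 lay with NFI-C2 cells, at -1.44, -1.60 and -1.69 with wild type arrays at -0.11 to 0.19 and FoxF1 arrays at 0.18 to 0.49. Snai2 went the other way, with a difference of -0.45 (limma adjusted p = 0.00067). Its FoxF1 arrays at -0.05 to 0.02 lay between wild type, at -0.47 to -0.30, and NFI-C2, at 0.32 to 0.49.

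Of 23 mesenchymal markers 15 were higher and 3 lower, with a median of 1.04. Besides Ddr2, Aebp1 and Vim, the receptor Pdgfrb (3.87), S100a4 (3.37), fibronectin Fn1 (3.32), caldesmon Cald1 (2.50) and N-cadherin Cdh2 (2.39) were higher. Cdh2 was at 0.81, 0.97 and 0.87 in FoxF1 cells, at -1.49, -1.47 and -1.55 in NFI-C2 cells and at -0.03 to 0.01 in wild type cells, so that its difference was made of parts from both lines. Postn was a large exception, at -4.92, -5.51 and -6.24 against 0.42, 0.27 and 0.31 (difference -5.89, SE 0.287), and Tnc was lower by -1.38. Both code for matrix proteins that mesenchymal cells often make.

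The 17 genes that the study listed as lowered by NFI-C2 and raised by FoxF1 were all higher in this comparison, by 1.79 (Ssbp4) to 5.93 (Lox), with a median of 2.89. Because the study chose them on these arrays for opposite directions, the result follows from the choice and is not independent evidence. In the median they lay 1.58 above wild type in FoxF1 cells and at -0.90 in NFI-C2 cells. The study's 13 EMT genes, also chosen on these arrays, divided into 8 higher and 5 lower.

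Genes of the extracellular matrix did not move as 1 group. Of 24 genes for elastic fibres and collagen crosslinking 11 were higher and 3 lower. Loxl1, a relative of Lox (3.85), and Ltbp1, which stores latent TGF-β (3.65), followed Lox, while Eln, the elastin gene, differed by -0.05 and was not called. Loxl1 was near wild type in NFI-C2 cells, at -0.03 to -0.02, whereas Ltbp1 was below it, at -1.71, -1.85 and -1.92. Of 17 interstitial collagens 8 were higher and 4 lower, with a median of 0.02 that became 0.32 over the 13 genes without ties at the lowest value. Col12a1 (2.78), Col5a1 (2.51) and Col3a1 (2.41) were the largest rises, Col1a1 and Col1a2, the chains of collagen I, rose by 0.45 and 0.42, and Col11a1 was lower (-3.005). The collagen rises were thus largest outside collagen I.

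Basement membrane genes leaned the other way, with 9 falls and 3 rises among 19. Lamb3 (-4.71) and Lama3 (-2.44), chains of the laminin of hemidesmosomes, were lower together with Lama4 (-3.02) and agrin Agrn (-2.73), and Lamb1 (1.73) and Lamc1 (1.38), chains of other laminins, were higher. Integrins gave 5 rises and 5 falls among 17, not far from the 22.9% and 19.1% of all genes, with Itga5 of the fibronectin receptor (1.92) and Itga1 (1.63) as the largest rises and Itgb6 (-2.69) as the largest fall. Proteases and their inhibitors had 11 rises and 6 falls among 23. Timp1 (2.03), Mmp19 (1.91), the urokinase receptor Plaur (1.78) and Adamts5 (1.49) were higher, and Timp3 (-1.31) and Mmp13 (-1.27) were lower. Mmp2 and Mmp9, the gelatinases, differed by -0.04 and 0.06 and were not called. Among 17 contractile genes 8 were higher, led by the smooth muscle actins Actg2 (3.04) and Acta2 (1.86), and 4 were lower, Smtn the most (-0.38).

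The Notch pathway, which directs cell fate through contact between neighbours, had more falls than rises in FoxF1 cells. Of 17 genes tested, 11 had falls that all reached 2-fold and 2 had rises, where 5.57% of all genes fell by as much and 22.9% rose, and the median was -1.54. Notch1 was at -3.26, -2.96 and -3.40 in FoxF1 cells and at 0.45, 0.19 and 0.08 in NFI-C2 cells (difference -3.44, SE 0.127, limma adjusted p = 4.2e-07). Its ligands Jag2 (-3.38), Jag1 (-2.31) and Dll1 (-1.58), its targets Nrarp (-2.68), Hes1 (-2.58) and Hey1 (-1.54) and the receptor Notch3 (-1.10) were lower too. The target Hey2 was higher by 0.98 and the receptor Notch2 by 0.28, and the receptor Notch4 (-0.04), the ligand Dll4 (-0.01), the target Heyl (-0.08) and the modifier Mfng (0.03) were not called. Hey1 was below wild type in both lines, by -4.26 in FoxF1 cells and by -2.72 in NFI-C2 cells.

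Wnt pathway genes had 14 falls and 2 small rises among 37. The share called was close to the 42.0% of all genes, with more falls and fewer rises in it. The falls were largest in inhibitors of the pathway. Nkd2 was 51.6-fold lower, at -5.59, -5.78 and -5.75 against 0.04, -0.09 and 0.00. Wif1, a secreted inhibitor, was at -3.13, -3.14 and -2.72 in FoxF1 cells and at 2.30, 1.90 and 2.23 in NFI-C2 cells, with wild type at -0.03 to 0.00. Sfrp1, another secreted inhibitor, was lower by -4.64 and the receptor Fzd7 by -1.91. The target Axin2 was not called (difference 0.32, 95% interval 0.05 to 0.60 before correction for the number of genes, limma adjusted p = 0.0622).

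In the TGF-β and BMP pathway 9 of 33 components were higher and 10 lower, not far from the shares of all genes (22.9% and 19.1%), and the median was 0.00. Tgfb2 (2.03), Tgfb3 (1.46) and the coreceptor Tgfbr3 (2.38) were higher, and Tgfb1 (-1.08), Bmp7 (-3.97) and the activin chains Inhbb (-3.09) and Inhba (-1.68) were lower. The receptor Smads differed little, Smad2 by -0.11 and Smad3 by -0.03, neither called, and the inhibitory Smad7 was higher by 0.94. Of 15 TGF-β targets 8 were lower and 5 higher. Tgfbi was the largest rise (2.15), and Pmepa1 (-2.33), Skil (-1.16) and Id1 (-0.88) were lower besides Postn. The target list shares Snai1, Smad7, Col1a1, Jag1, Ltbp2 and Postn with other lists given here.

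Growth factor systems differed in their members as well. Among 14 PDGF and VEGF genes 9 were higher and 3 lower. Pdgfc (3.55), the coreceptors Nrp1 (3.28) and Nrp2 (3.16), and Vegfc (2.52) were higher, and Pdgfb was lower by -2.56. Nrp1 was at 2.56, 2.76 and 2.32 against -0.82, -0.70 and -0.67. In the EGF family 3 of 13 genes were higher and 5 lower, close to the share of all genes for the rises, and 5 were not called. The receptors Erbb3 (-3.38), Egfr (-1.52) and Erbb2 (-1.44) were lower and the ligands Nrg1 (2.22), Epgn (2.10) and Hbegf (1.27) were higher. The ligand Tgfa (-0.97) and Errfi1 (-0.51), an inhibitor of the receptors, were lower, and the receptor Erbb4 and the ligands Egf, Ereg, Btc and Nrg2 were not called.

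IGF binding proteins divided by gene. Igfbp3 (-4.57), Igfbp5 (-3.97) and Igfbp2 (-2.49) were lower and Igfbp6 (1.47), Igfbp4 (1.43) and Igfbp7 (1.12) higher, while Igf1r was lower by -0.55. Igfbp5 was below wild type in both lines, by -6.65 in FoxF1 and by -2.68 in NFI-C2 cells. Of 22 FGF genes 9 were lower, led by Fgf13 (-2.74) and Fgfbp1 (-2.53), and 4 were higher, led by Fgf10 (1.96). In the hedgehog pathway, known to act upstream of Foxf1 in mesenchyme, 6 of 13 genes were lower and 2 higher. The coreceptor Boc (-3.13) differed most, and the targets Gli1 (-0.75) and Ptch1 (-0.24) were lower. YAP targets and partners gave 8 rises and 6 falls among 16. Ankrd1 (3.91) was at -0.06 to 0.08 in FoxF1 cells, at -3.95, -3.78 and -3.98 in NFI-C2 cells and at 0.88 to 1.04 in wild type cells, and Ccn1 was higher by 3.21, whereas Ccn2 was lower by -1.23. Both lines therefore lay below wild type for Ankrd1, NFI-C2 cells by far more than FoxF1 cells.

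Genes of axon guidance, which also steer epithelial contacts, had 22 falls and 10 rises among 38. Epha7 (-5.17), Sema6a (-4.02), Robo1 (-3.87) and Sema4a (-3.04) were lower, and Sema3a, Ntn1 (1.95), Plxna2 (1.80) and Plxnd1 (1.61) were higher. Sema3a was at 1.71, 1.63 and 1.43 in FoxF1 cells and at -2.44, -2.41 and -2.51 in NFI-C2 cells. Its receptor Nrp1 was higher in the same arrays.

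A group of smaller but uniform differences was found in the unfolded protein and amino acid (ATF4) response, by which cells adjust protein folding and amino acid supply under stress. All 18 genes tested were higher in FoxF1 cells, 8 of them by 2-fold or more, where 22.9% and 3.73% of all genes were, with a median of 0.96. Trib3 was at 1.62, 1.77 and 1.87 against -0.85, -0.70 and -0.47 (difference 2.42, SE 0.104, limma adjusted p = 9.5e-07). Ddit3 (1.62), Chac1 (1.58), Atf5 (1.40), Atf4 itself (1.27) and the serine synthesis gene Phgdh (1.30) were higher, and the endoplasmic chaperones Hspa5 (0.67) and Hsp90b1 (0.32) were higher by less. In the median the group lay 1.11 above wild type in FoxF1 cells and 0.05 in NFI-C2 cells. This list, like the others, was chosen with earlier results of these data known. The cystine transporter Slc7a11, counted among NRF2 targets, was higher by 2.69.

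**Figure D3:**
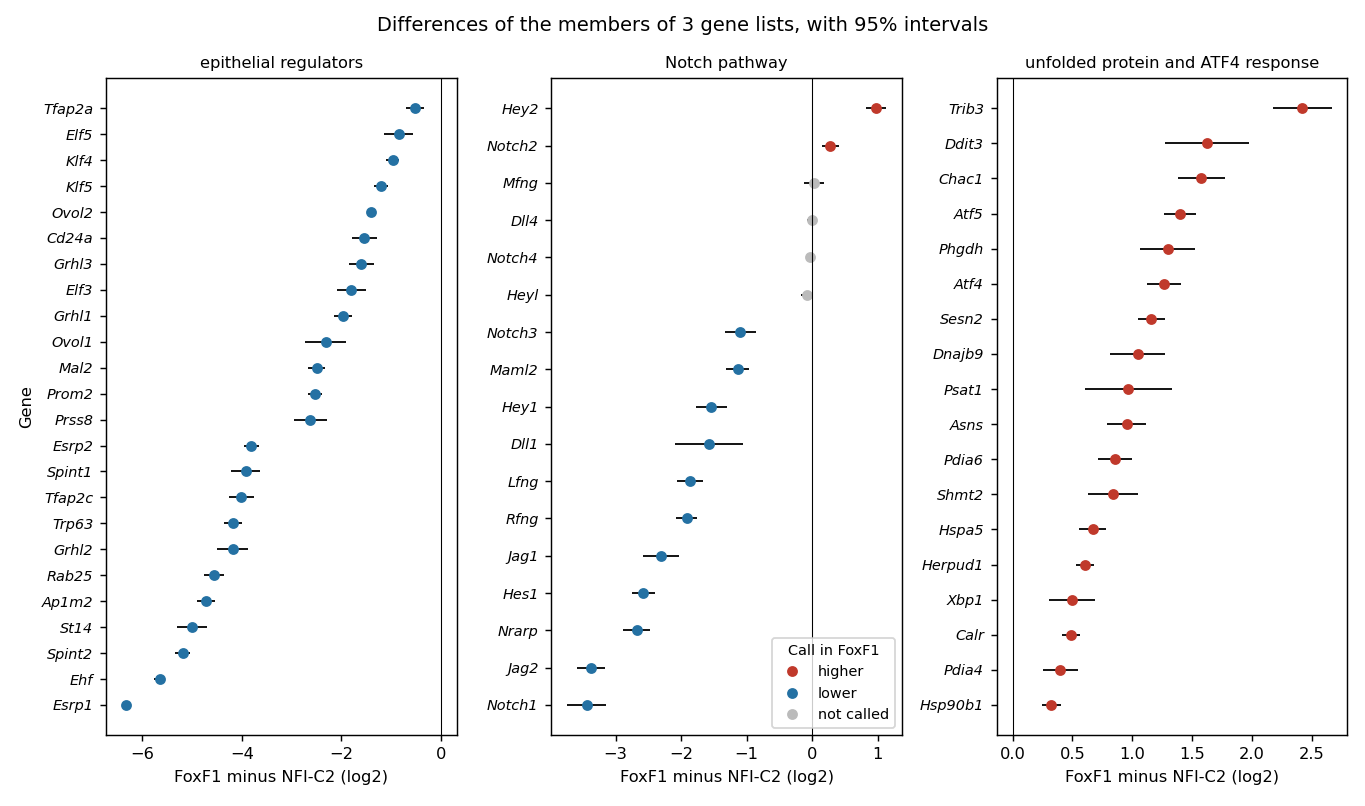
Difference of FoxF1 minus NFI-C2 cells (log2, horizontal axis) of each tested member of 3 gene lists, 24 epithelial regulators, 17 Notch pathway genes and 18 genes of the unfolded protein and ATF4 response, with 95% intervals from limma as bars and the call by color. The epithelial regulators range from -6.32 to -0.52 and the unfolded protein and ATF4 genes from 0.32 to 2.42, and the Notch genes hold 11 falls, 2 rises and 4 genes not called.

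Among 20 NRF2 targets and glutathione transferases 12 were higher and 7 lower, without a common direction. Hmox1 (1.62) and Gstm2 (1.15) were higher, and Nqo1 (-3.31) and Gsta3 (-3.31) were lower. Nqo1 was at -1.39, -1.20 and -1.30 in FoxF1 cells and at 1.99, 1.98 and 2.07 in NFI-C2 cells, on either side of wild type. Of 17 p53 targets 8 were higher and 7 lower, from Gadd45a (3.36), a stress-induced growth arrest gene, to Phlda3 (-2.59).

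Of 24 genes of DNA replication 19 were higher in FoxF1 cells and 2 lower, where 22.9% and 19.1% of all genes were, with a median of 0.54. E2f1 was at 0.31, 0.44 and 0.49 against -0.62, -0.58 and -0.83 (difference 1.09, SE 0.0701, limma adjusted p = 8.4e-06), and Cdt1 (1.01), Gins2 (0.95) and the helicase subunit Mcm3 (0.94) followed. The median difference of these genes from wild type was 0.30 in FoxF1 and -0.28 in NFI-C2 cells. Of 19 mitosis genes 4 were higher, close to the share of all genes, and 7 lower, with a median of -0.10. The difference between both lists was not tested. In the mitosis list Birc5, which blocks cell death and acts in chromosome segregation, differed most (-1.46). Among inhibitors and cyclins, Cdkn2c (1.43) and Cdkn2b (1.32) were higher and Ccnd2 (-2.07) and Cdkn1b (-1.20) lower.

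Interferon-stimulated genes, chemokines and cytokines that were called were mostly lower. Other immune lists did not share this lean. Complement and pentraxin genes had 4 rises and 2 falls among 13, and antigen presentation genes had 2 rises and 3 falls among 15. Of 23 interferon-stimulated genes 7 were lower and none higher, with Ddx58 (-1.60), Xaf1 (-1.15) and Ifih1 (-1.03) as the largest. Of 29 chemokines and cytokines 13 were lower and 3 higher. Cxcl5 (-3.68), Cxcl16 (-3.53) and Cxcl1 (-2.42) were lower, while Cxcl12 and Csf1 (1.76), a growth factor of macrophages, were higher. Il6 was lower by -0.53, and both lines lay below wild type, by -3.10 in FoxF1 and by -2.56 in NFI-C2 cells.

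Metabolic lists had small medians, from -0.10 (fatty acid synthesis) to 0.32 (glycolysis and hypoxia), while single genes differed by far more. Of 23 glycolysis and hypoxia genes 13 were higher and 6 lower, with Eno2 (1.31) and Bnip3 (1.02) among the rises and Ndufa4l2 (-4.17) and Aldoc (-3.91) among the falls. Cholesterol synthesis had 8 rises and 3 falls among 19, all but Insig1 (1.10) under 2-fold. In fatty acid synthesis 8 of 16 genes were lower, with Elovl7 (-2.16) and Fasn (-1.45) as the largest on an annotated locus, and 4 were higher. Of 25 genes of oxidative phosphorylation 9 were higher and 5 lower, and Cyc1 (1.15) alone exceeded 2-fold. Zinc transporters and metallothioneins had 2 rises and 3 falls among 11, Slc39a4 (-1.71) being the largest.

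Markers of mammary cell types and of other cells were examined beside these results. Of 14 luminal markers 6 were lower and 3 higher, among them Kit (-4.20) and Gata3 (1.03). Of 16 basal markers 6 were lower and 5 higher, with the basal keratins among the falls and Vim, Nrg1 and Acta2 among the rises. Among 16 milk and lactogenic genes Xdh (1.74) and Mfge8 (1.45) were higher, Ltf (-1.67) and Stat5a (-0.57) lower, and Csn2, the β-casein gene, was not called.

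Fibroblast markers had 8 rises and 1 fall among 13, with Pdgfrb, Twist2, Col3a1 and Dcn (1.503) as the largest rises, Postn as the fall, and Lum, Dpt and Pi16 within 0.04 of no difference. Of 13 endothelial markers only Kdr (0.26) and Pecam1 (-1.88) were called, and none of 13 immune markers was, with differences of -0.05 to 0.22. Of 9 adipocyte markers 3 were higher, Fabp4 (2.59) most, and Adipoq differed by 0.02. Because levels were removed by the centring, whether a marker was at 0 could not be read, and the part of other cells in the fibroblast result was not tested. Of 23 Hox genes 8 were lower and 3 higher, none but Hoxc9 (-1.02) by 2-fold. Reference genes used for normalization had 5 rises and no fall among 11, B2m (0.71) and Tbp (0.58) above the rest, with Ppia and Rplp0 at 0.02 and -0.02.

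Some genes were alike in both lines and far from wild type. The 8 farthest among the 13599 genes with an interval within 1.5-fold were led by Ctsz, a lysosomal protease. Ctsz was at -0.02, -0.15 and 0.00 in FoxF1 cells, at 0.01, -0.27 and -0.26 in NFI-C2 cells and at 3.90, 4.09 and 4.14 in wild type cells. The FoxF1 and NFI-C2 values overlapped, and their difference was 0.12 (95% interval -0.10 to 0.34). The guidance cue Sema3d, the cytokine Il17b, the nuclear receptor Rorb, the lectin receptor Clec12a, the adhesion receptor Adgrg2 and the claudin Cldn7 were also below wild type in both lines, by -1.85 (Cldn7 in NFI-C2 cells) to -3.50 (Sema3d in FoxF1 cells). The receptor P2ry10b was above wild type by 2.92 in FoxF1 and 3.19 in NFI-C2 cells. Differences between the lines were called but small for Sema3d (-0.36), P2ry10b (-0.27, a call lost in 10 of 19 alternative settings), Il17b (-0.09), Rorb (0.22) and Adgrg2 (-0.29), and Clec12a (-0.01) and Cldn7 (-0.07) were not called. How far these values stem from the wild type arrays was not tested.

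Position on the chromosomes was not used to choose genes, and differences were not spread evenly over it. Over 883 overlapping windows of 40 neighbouring genes, the interquartile range of the medians was -0.01 to 0.03, and the 6 lowest, from -1.29 to -0.61, were all at the distal end of chromosome 11. The bounds of this region and of that on chromosome 8 were set after these medians were seen, so that the shares below are a description. From Cog1 to the end (chr11:113510642-121704743 in the build NCBIM37 of the files), 122 of 193 genes tested (63.2%) were lower in FoxF1 cells, 76 of them by 2-fold or more, and 4 were higher. On the rest of chromosome 11, 391 of 1276 genes (30.6%) were lower. The genes called at the distal end differed from wild type by -1.10 in FoxF1 and 0.06 in NFI-C2 cells in the median, and 121 of these 126 were below wild type in FoxF1 cells.

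The largest falls in this region were Itgb4 (-5.52), the carbonyl reductase Cbr2 (-3.56), the GTPase Rac3 (-3.45) and the adhesion molecule Sdk2 (-3.28). Members of gene lists given above that lie there are Itgb4, Evpl, Timp2, Rfng, Fasn, Slc16a3, Birc5 and Foxj1. Without the region 3399 genes were lower in FoxF1 cells, 955 of them by 2-fold or more.

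Of 9 windows with a median over 0.35, 4 were at the distal end of chromosome 8. One of these holds Foxf1 (chr8:123608309-123610779) and has a median of 0.47, and the other 3 begin beyond it. Another window that holds Foxf1 has a median of 0.17. From Cmc2 to the end of chromosome 8, 79 of 137 genes (57.7%) were higher in FoxF1 than in NFI-C2 cells and 7 were lower, against 197 higher of 771 (25.6%) on the rest of the chromosome. The genes called in this region differed from wild type by 0.35 in FoxF1 and by -0.39 in NFI-C2 cells in the median, and 78 of 86 were below wild type in NFI-C2 cells. Of the 10 tested genes on each side of Foxf1, 13 were called, 12 of them higher, with a median of 0.73 among the called, which differed from wild type by -0.71 to 0.05 in NFI-C2 cells. The direct difference of Foxf1 (1.44) was inside the range of these neighbours, which reached 1.90. In NFI-C2 cells Foxf1 lay farther below wild type, by the value given above, than any of these called neighbours. Piezo1, elsewhere in the region, lay at -1.255 from wild type in NFI-C2 cells. Kcnk1 (-4.29), Nrp1 (3.28), Atp2c2 (-1.97) and Piezo1 (1.91) were the largest differences of the region.

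**Figure D4:**
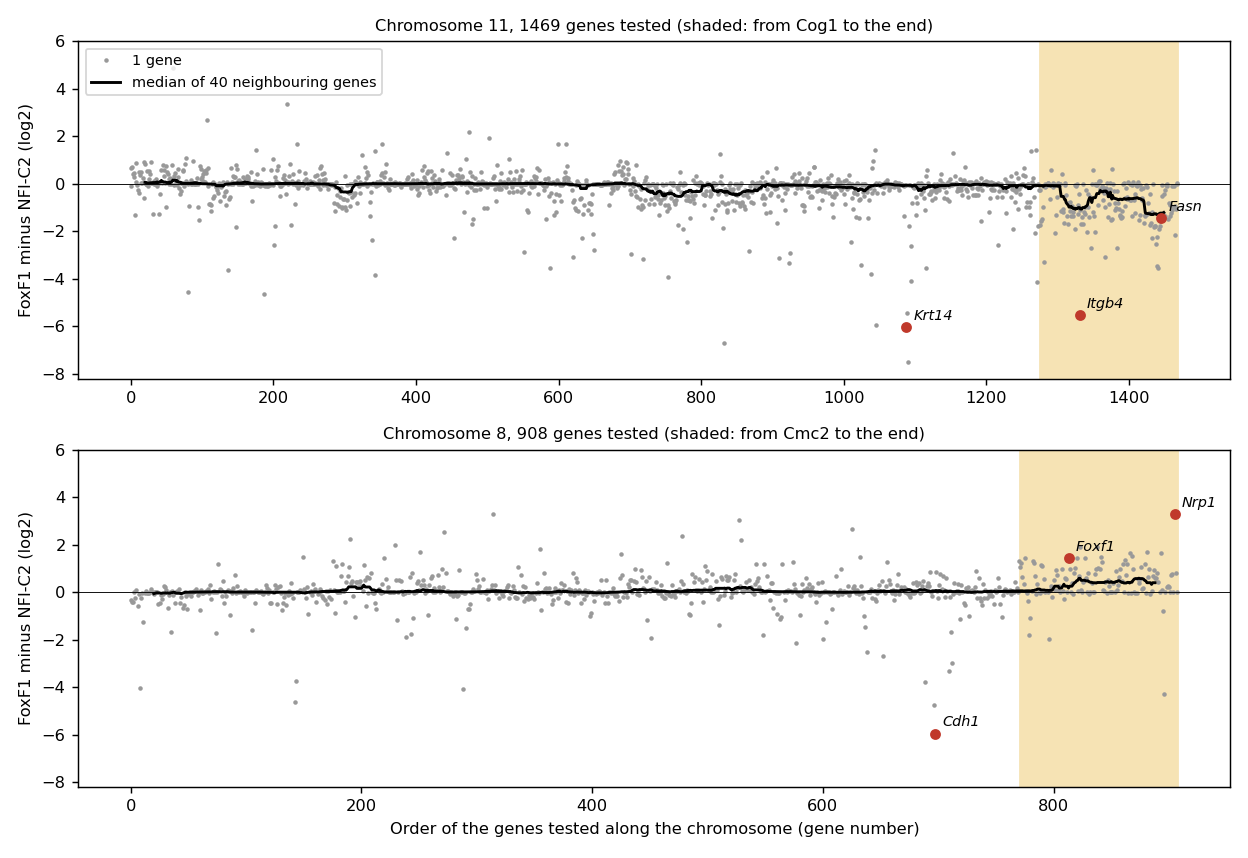
Difference of FoxF1 minus NFI-C2 cells (log2, vertical axis) of each gene tested on chromosomes 11 (1469 genes) and 8 (908 genes) in their order along the chromosome (horizontal axis, gene number), with the running median of 40 neighbouring genes as a line. In the shaded ends, 122 of 193 genes were lower on chromosome 11 and 79 of 137 were higher on chromosome 8.

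Members of the lists in the distal region of chromosome 8 are Foxf1, Foxc2, Foxl1, Snai3, Itgb1, Nrp1, Mvd, Cox4i1, Cdt1 and Gins2. Other windows with a median over 0.35 were on chromosomes 4, 12 and 19. The share of genes higher in FoxF1 cells was 38.5% on chromosome 3, 34.9% on chromosome 14 and 34.8% on chromosome 15, and the share lower was 34.9% on chromosome 11. The cause of these differences by position was not tested.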

How the data were processed

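RNA of 9 samples was hybridized by the authors to Affymetrix Mouse Gene ST arrays. The deposited values are log2 expression after RMA, per the labels, without a version. Tested on the values, each cluster has a median of 0 over the 9 arrays. The members and gene lists were chosen with earlier results of these data known.

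Clusters with 1 symbol in the platform annotation were kept (21780 of 28815), 1 per gene by the number of probes. Of 19935 genes, 1438 equal on all arrays were left out. In 4224 of the genes tested 2 or more arrays shared the lowest value (within 1e-06). Why is not given in the sources used here. The clusters of Sfn, Disp1, Socs2 and Acaca, which enter list counts, lie on another chromosome than the gene. The lists hold 982 genes, 911 of them tested, 54 without a cluster of 1 symbol and 17 equal on all arrays.

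A linear model with a mean for each of 3 groups was fitted with limma 3.58.1 (R 4.3.3), which left 6 residual degrees of freedom. Tests were two-sided with Benjamini-Hochberg adjustment. The fit was tested on simulated data. Tables were read with Python 3.11.15 and pandas 2.3.3. Precision is limited by the number of arrays. Named genes are the 15 largest rises and falls with arrays that do not overlap, the study's listed genes, up to 4 called members per list with others for contrast, the 8 genes alike in both lines and farthest from wild type, the families of both factors and up to 4 genes per region. Predicted and RIKEN symbols were passed over. Promoters and their coordinates (GRCm38.p6) came from RefSeq, and cluster positions (NCBIM37) from the deposited annotation.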

Additional observations from a re-analysis of the deposited data

Results flagged for a closer look

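Of the 7035 transcript clusters without a single gene symbol, 1 lay 5 or more log2 units above every wild type array on all arrays of a line. This cluster, 10582549, has 22 probes on the minus strand of chromosome 8 (chr8:125955801-125957414, NCBIM37) and no transcript in the deposited annotation, and it entered no comparison above. The NFI-C2 arrays were at 7.70, 7.70 and 7.87, the FoxF1 arrays at 1.35, -0.42 and -0.29 and the wild type arrays at -0.46, 0.00 and -0.48. The mean difference of NFI-C2 from wild type cells was 8.07, and that of FoxF1 from NFI-C2 cells was -7.54, between those of Krt17 (-7.49) and Krt5 (-7.57). The cluster lies inside the distal region of chromosome 8 described above. The source of its signal was not tested.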

How the results depend on the processing

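Leaving out 1 array in turn gave 3889 to 4159 genes higher and 3232 to 3450 lower in FoxF1 cells, 655 to 716 and 1009 to 1061 of them by 2-fold or more, and 13264 to 13523 genes with an interval within 1.5-fold. These counts stayed within 1.5 times the reported ones under every alternative run but 1. Quantile normalization, which gives all arrays one distribution and so by construction removes the wider spread of the FoxF1 arrays, gave 620 falls of 2-fold or more in place of 1031, with 3022 genes higher and 2937 lower. Of the reported calls, 3013 rises and 2920 falls remained under it. Replicates with the same number had residual correlations of 0.175, 0.0653 and 0.0812, all positive. Those with unlike numbers had -0.197 (FoxF1 replicate 3 and NFI-C2 replicate 1) to 0.102 (FoxF1 replicate 3 and NFI-C2 replicate 2). The numbers were not taken to pair the samples in the main fit. With the replicate block 4289 genes were higher and 3555 lower, 690 and 1031 by 2-fold or more, and 13690 had an interval within 1.5-fold. Filters chosen after the data were seen gave similar counts, with 4073 higher and 3414 lower for uniquely hybridizing clusters on the chromosome of the gene, 4239 and 3399 without distal chromosome 11, and 4165 and 3516 without distal chromosome 8. The 244 named genes followed under the alternatives leave out list members named only for contrast. Of 4631 values of these 244 genes, 68 kept their direction and lost the threshold. Among the 244, only Clec12a, which was not called, changed sign, with -0.0694 to 0.0236 over the fits without 1 array (0.0172 without FoxF1 replicate 1, 0.0236 without FoxF1 replicate 2, 0.0159 without NFI-C2 replicate 2) and 0.0043 under quantile normalization. Without the genes tied at the lowest value, the medians of 21 of 55 gene lists moved by more than the spread between replicates, all of these away from 0, for example from -1.25 to -2.04 for epidermal differentiation. Smaller shifts went either way, as from -0.04 to -0.03 for the FGF pathway, and the medians of lists without such genes stayed as they were. Only differences between arrays, not levels, can be read from these values.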
